A study of Mus musculus with 16 samples.

Results

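The genes described here encode proteins that copy DNA in S phase and proteins that condense, align and separate the chromosomes in mitosis. A list of 47 such genes, 23 for replication and 24 for mitosis, was matched by symbol to the probe sets that the array's annotation assigns to a single gene. Of these, 42 were measured, 21 of each kind, out of 8251 genes with such a probe set on the array. Pole, Tyms, Ccnb1, Cdc25b and Bub1b had none and are not described. The 42 genes had 56 probe sets, and each gene is read from the one with the highest mean over all arrays, with the 14 others kept as a check.

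The study hybridised RNA from adult mouse retina and from postnatal day 1 mouse cortex to 1-colour oligonucleotide arrays, to assess variation between replicates and between laboratories. There were 5 arrays per tissue at the first site and 3 per tissue at a second site (site 2), 16 in all, and about 10 µg of total RNA was labelled for each. The retina RNA was a pool from 350 adult C57/B6 mice, with no age stated, and the cortex RNA a pool from 19 mice. The samples' own descriptions call the cortex donors C57/B6 too, but the design text of the series calls them Swiss-Webster, so organ, age and possibly strain differ together between the tissues and cannot be told apart. No treatment is named, and both tissues carry all cell types that the dissection kept. Each group is repeated aliquots of a single pool, so every p-value measures the spread between arrays and not between animals. In pooled bulk RNA, fewer cells of a type and less RNA per cell cannot be told apart.

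In S phase the Mcm2-7 helicase is activated at origins, DNA polymerases with primase and the PCNA clamp copy the strands, and ribonucleotide reductase and thymidine kinase supply deoxynucleotides. In G2 and mitosis, cyclin A and B with Cdk1, the Aurora and Polo kinases, the spindle checkpoint and motor kinesins drive chromosome segregation and cytokinesis. Replication genes are classically transcribed through E2F sites, and many mitotic genes through a cell cycle homology region (CHR) together with CCAAT boxes. Newborn mouse cortex still contains dividing progenitors, whereas neurons of the adult mouse retina no longer divide. Several of the proteins, such as PCNA, Fen1, Lig1 and RPA, also act in DNA repair outside S phase.

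The upstream sequences of 4 mitosis genes and 3 replication genes are shown as examples. Of these genes, 6 were picked from the 21 called toward cortex at both sites. Fen1 was the only gene called toward retina at both. The sequences are RefSeq promoters of assembly GRCm38.p6, written 5′ to 3′ on the gene's own strand and ending before the first listed transcription start. Capitals mark matches on either strand to E2F (TTTCCCGC, TTTCGCGC, TTTGCCGC or TTTGGCGC), CHR (TTTGAA) or CCAAT, so that ATTGG and TTCAAA are the latter motifs on the opposite strand.
Cdk1, chr10:69352913-69353112, minus strand: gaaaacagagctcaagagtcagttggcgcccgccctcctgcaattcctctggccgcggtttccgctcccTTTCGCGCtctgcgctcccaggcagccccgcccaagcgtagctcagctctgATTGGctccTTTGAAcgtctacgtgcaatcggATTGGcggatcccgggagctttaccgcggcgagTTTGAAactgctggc
Ccnb2, chr9:70421555-70421754, minus strand: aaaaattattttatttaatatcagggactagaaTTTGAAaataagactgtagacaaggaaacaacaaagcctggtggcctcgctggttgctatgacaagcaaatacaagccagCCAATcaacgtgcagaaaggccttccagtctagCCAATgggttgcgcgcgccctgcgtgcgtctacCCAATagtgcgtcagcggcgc
Cdc20, chr4:118437344-118437543, minus strand: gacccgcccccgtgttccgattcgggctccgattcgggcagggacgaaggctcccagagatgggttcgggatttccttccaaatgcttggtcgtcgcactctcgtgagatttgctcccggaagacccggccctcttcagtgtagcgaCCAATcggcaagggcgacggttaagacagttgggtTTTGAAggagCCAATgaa
Top2a, chr11:99024200-99024389, minus strand: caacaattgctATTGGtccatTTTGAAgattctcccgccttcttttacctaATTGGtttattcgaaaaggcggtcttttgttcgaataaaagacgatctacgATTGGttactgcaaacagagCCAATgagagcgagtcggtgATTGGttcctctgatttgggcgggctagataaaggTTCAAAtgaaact
Mcm5, chr8:75109309-75109467, plus strand: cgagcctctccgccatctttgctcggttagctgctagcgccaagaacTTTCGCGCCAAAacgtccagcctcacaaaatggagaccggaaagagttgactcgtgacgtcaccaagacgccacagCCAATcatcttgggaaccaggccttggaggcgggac
Rrm2, chr12:24708054-24708253, plus strand: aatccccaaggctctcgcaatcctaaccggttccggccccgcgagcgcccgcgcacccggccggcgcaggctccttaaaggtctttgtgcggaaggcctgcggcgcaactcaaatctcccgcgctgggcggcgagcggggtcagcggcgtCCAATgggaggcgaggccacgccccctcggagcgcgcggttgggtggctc
Fen1, chr19:10204394-10204593, minus strand: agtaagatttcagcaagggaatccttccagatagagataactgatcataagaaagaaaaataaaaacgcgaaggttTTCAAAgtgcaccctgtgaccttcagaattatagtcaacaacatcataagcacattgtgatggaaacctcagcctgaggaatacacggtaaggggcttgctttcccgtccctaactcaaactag
The printed Cdk1 window holds an E2F match, 2 CHR matches and 2 CCAAT boxes, and that of Top2a holds 2 CHR matches and 5 CCAAT boxes. The Mcm5 window has 2 overlapping E2F matches on opposite strands and 1 CCAAT box. In Rrm2 the only match is 1 CCAAT box, and in Fen1 it is 1 CHR match. The 4 mitosis examples all hold CHR and CCAAT matches, which other mitosis genes lower at both sites did not all have. Aurka, Bub1, Cks2, Plk1 and Racgap1 had no CHR match in the 250 bases before the start, and Birc5 had no match of any kind.

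Promoters were found for 36 of the 42 genes, all but Mcm4, Prim2, Ccna2, Cdc25c, Aurkb and Kif20a. In the 250 bases before the start, a CHR match was present in 9 of 17 mitosis promoters (52.9%) and in 3 of 19 replication promoters (15.8%), against 16.3% of 27025 genes with a promoter in the table. A CCAAT box was present in 14 of the 17 (82.4%) and in 12 of the 19 (63.2%), against 34.5% of all genes. E2F matches occurred in 5 of the 19 replication promoters (26.3%), namely Mcm5, Mcm6, Mcm7, Cdc6 and Pola1, and in 1 of the 17 mitosis promoters (5.9%), that of Cdk1, against 1.9% of all genes. CHR and CCAAT occurred together in 8 of 17 mitosis promoters (47.1%) and 2 of 19 replication promoters (10.5%), against 5.7% of all genes. By call rather than by kind, a CHR match was present in 36.8% of the 19 promoters of genes lower in retina at both sites and in 29.4% of the other 17, and a CCAAT box in 78.9% and 64.7%. These matches describe letters and not binding sites.

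Before testing, the array median of log2(intensity + 16) was subtracted on every array. Differences are retina minus cortex on that scale, with a standard error (SE), and they understate the change of dim genes. A gene is called lower or higher where limma's adjusted p over all 12422 probe sets is under 0.05. Levels of single arrays are given as scaled intensity, with each array's median set to 100, in the order of the replicate numbers. An array's floor is the highest of 13 control probe sets without target, and where every array of the dimmer group lies at or under it, only a lower bound of the fold is given.

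Deposited intensities had array medians of 45.7 to 216, and the share of probe sets above the floor ran from 68.5% to 78.8%. The dimmest array was cortex replicate 2 of the second site, with a median of 45.7. On it, 15 of the 21 mitosis genes (71.4%) and 6 of the 21 replication genes (28.6%) had their highest scaled intensity among the 3 cortex arrays of that site, against 51.5% of all genes. Results of the second site are therefore also given without that array.

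At the first site, 12 of the 21 replication genes and 17 of the 21 mitosis genes were lower in retina, where 28% of all 8251 genes, read from 1 probe set each, were called lower. Of the replication genes 2 were higher, Fen1 and Rpa2, and of the mitosis genes none was by limma's adjusted p (2 at an unadjusted p under 0.05), against 25.5% of all genes. The median difference was -0.43 for replication and -0.70 for mitosis genes, against -0.04 over all genes. With the 5 mitosis genes at the floor in retina set to their bounds, and Mcm6 left out because it was at the floor in both tissues, these medians were -0.38 and -0.55. No overlap between the arrays of the tissues, in either direction, was seen for 8 of the 21 replication genes and 16 of the 21 mitosis genes, against 44.5% of all genes. The replication share was thus under that of all genes and the mitosis share over it.

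At the second site, 7 of 21 replication and 14 of 21 mitosis genes were lower in retina, against 17.9% of all genes. Fen1 was the only replication gene called higher and no mitosis gene was, by limma's adjusted p (1 at an unadjusted p under 0.05), against 20.1% of all genes. The medians were -0.09 and -0.96, or -0.14 and -0.94 with genes at the floor treated as before, against -0.01 over all genes. Non-overlapping arrays, in either direction, were seen for 10 of 21 replication and 19 of 21 mitosis genes, against 52.8% of all genes. Again the replication share was under that of all genes and the mitosis share over it. Without cortex replicate 2, 8 replication and 14 mitosis genes were called lower and 1 of each higher, against 21.3% and 26.6% of all probe sets, and the medians were -0.10 and -0.82.

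**Figure D1:**
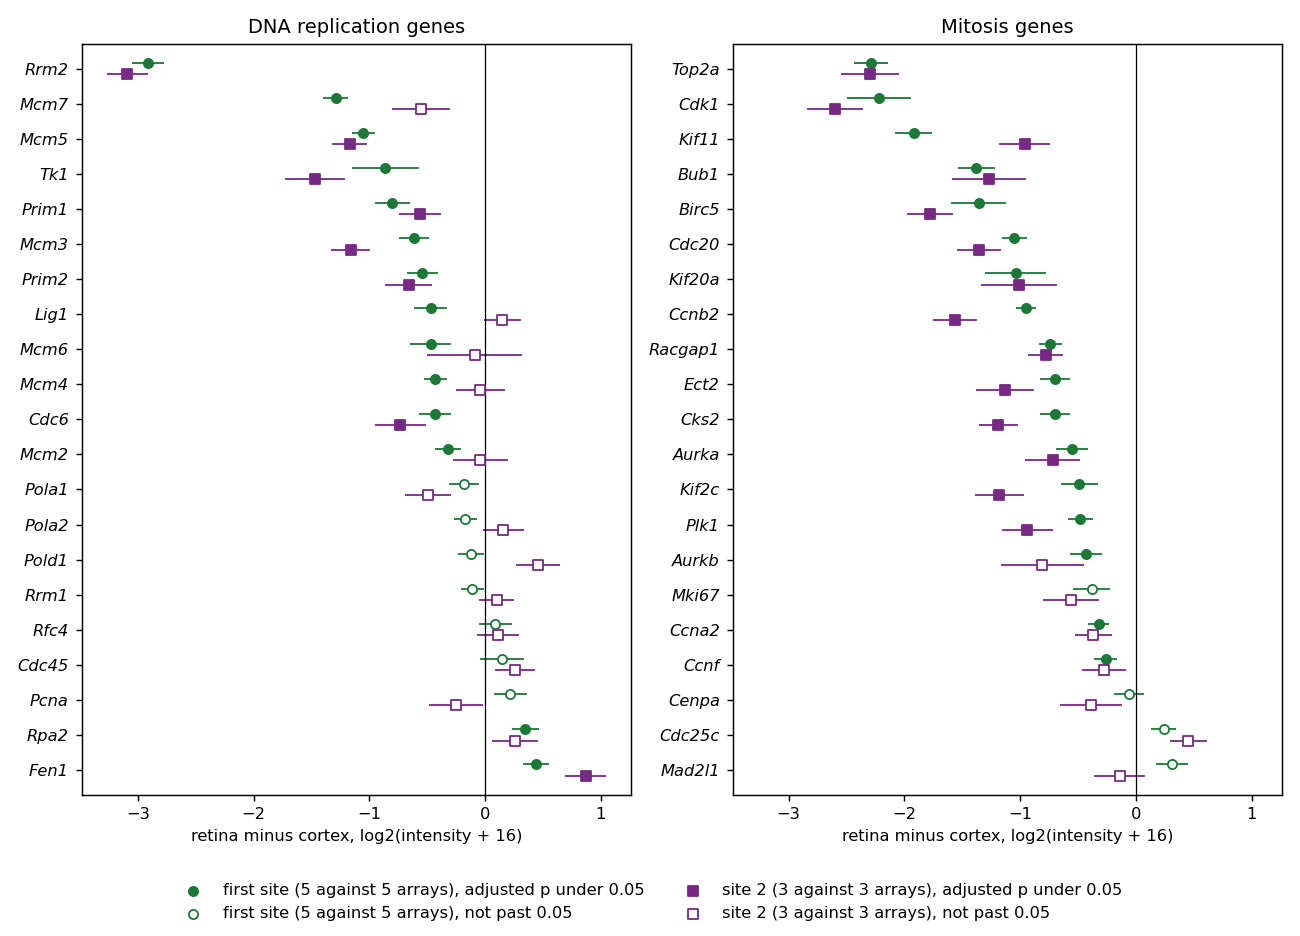
Difference between retina and cortex in log2(intensity + 16) for each measured gene at each site, with its standard error. Genes are ordered by the first-site difference within each kind, and filled symbols passed limma's adjusted p of 0.05. Rrm2, Cdk1 and Top2a lie far toward cortex at both sites, and Fen1 is called toward retina at both. Retina was at or under the floor on every array for Top2a and on some arrays for Rrm2 and Cdk1.

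Of the 8 helicase and origin genes, 7 were lower in retina at the first site and 3 at the second, against 28% and 17.9% of all genes. Mcm5, a subunit of the Mcm2-7 helicase, had scaled intensities of 99.9, 115, 93.4, 125 and 126 in first-site retina and 252, 274, 255, 206 and 251 in first-site cortex. Second-site arrays read 146, 154 and 158 in retina and 373, 364 and 363 in cortex. The tissues did not overlap at either site, and the log2 difference was -1.05 ± 0.10 (SE, adjusted p = 2.9e-07) and -1.17 ± 0.15 (SE, adjusted p = 1.6e-04). Mcm7, another helicase subunit, had scaled intensities of 95.5, 95.1, 101, 72.8 and 84.8 in first-site retina and 223, 277, 214, 233 and 259 in cortex, a log2 difference of -1.29 ± 0.11 (adjusted p = 2.9e-08). Its second-site arrays read 163, 173 and 215 in retina and 348, 184 and 315 in cortex, so that they overlapped. That log2 difference of -0.55 ± 0.25 did not pass (adjusted p = 0.14), and without cortex replicate 2 it was -0.86 (adjusted p = 3.5e-04).

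Mcm3 was lower at both sites, by log2 differences of -0.61 ± 0.13 (adjusted p = 6.5e-04) and -1.16 ± 0.17 (adjusted p = 4.0e-04). Its second-site retina arrays read 63.6, 57.5 and 77.6 in scaled intensity, all under the first-site retina range of 81.8 to 147, while cortex read 159 to 192 at both sites. Mcm2 and Mcm4 were lower at the first site only by call, by -0.32 ± 0.11 (adjusted p = 0.023) and -0.43 ± 0.10 (adjusted p = 0.0014), and both read -0.04 at the second site (SE 0.24 and 0.21). The Mcm2 call was lost without retina replicate 1, or without cortex replicate 1, 3 or 5, with log2 differences of -0.30 to -0.29 and adjusted p of 0.053 to 0.061. Mcm6 lay at or under the floor on every array, so its log2 difference of -0.47 ± 0.18 (adjusted p = 0.04) gives no fold. That call was lost without retina replicate 1, 3 or 4, or without cortex replicate 1, 2 or 4, with differences of -0.46 to -0.38 and adjusted p of 0.066 to 0.11. Cdc6, which loads the helicase at origins, was lower by -0.43 ± 0.14 (adjusted p = 0.015) and -0.73 ± 0.22 (adjusted p = 0.027). The second of these was lost without retina replicate 2 or 3, or without cortex replicate 1 or 3, with -0.79 to -0.57 and adjusted p of 0.051 to 0.13. Cdc45, a helicase cofactor, was not called, at 0.15 ± 0.19 and 0.26 ± 0.17.

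Among the 10 genes of the polymerases, primase, clamp and strand maturation, 3 were lower (30%) and 2 higher (20%) at the first site. The shares of all genes there were 28% and 25.5%. At the second site 2 were lower (20%) and 1 higher (10%), against 17.9% and 20.1% of all genes. The shares of lower calls were thus near the background at both sites. Prim1, the catalytic subunit of primase, read 23.4, 30.3, 32.7, 41.5 and 38.1 in scaled intensity on first-site retina arrays and 68.0, 66.4, 68.1, 70.9 and 61.6 on cortex arrays. Second-site retina read 46.7, 59.5 and 49.2 and cortex 87.5, 69.4 and 89.2, so neither site overlapped. The Prim1 log2 differences were -0.80 ± 0.15 (adjusted p = 2.1e-04) and -0.56 ± 0.18 (adjusted p = 0.039). Prim2, the large primase subunit, was lower by -0.54 ± 0.13 (adjusted p = 0.0022) and -0.66 ± 0.20 (adjusted p = 0.029). At the second site the Prim1 call was lost without any of retina replicates 1, 2 and 3 and cortex replicates 1 and 3 (-0.65 to -0.50, adjusted p 0.067 to 0.13). The Prim2 call there was lost without retina replicate 2 or 3, or without cortex replicate 1 or 3 (-0.71 to -0.50, adjusted p 0.059 to 0.13).

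Fen1, the nuclease that trims Okazaki fragments and also acts in base excision repair, was higher in retina at both sites. Its scaled intensities were 189, 162, 178, 179 and 159 in first-site retina and 126, 139, 95.3, 135 and 131 in cortex, without overlap. The second site read 235, 241 and 226 in retina and 131, 93.7 and 140 in cortex, again without overlap. The Fen1 log2 differences were 0.44 ± 0.11 (adjusted p = 0.0027) and 0.87 ± 0.18 (adjusted p = 0.0035). Rpa2, a subunit of the single-strand binding protein RPA, was higher at the first site by 0.35 ± 0.12 (adjusted p = 0.024) and read 0.26 ± 0.20 (adjusted p = 0.4) at the second. The Rpa2 call was lost without retina replicate 2 or 3, or without cortex replicate 1 or 4 (0.31 to 0.33, adjusted p 0.053 to 0.072).

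Pcna, the sliding clamp, was not called at either site, at log2 differences of 0.22 ± 0.14 (adjusted p = 0.21) and -0.25 ± 0.23 (adjusted p = 0.5). Its scaled intensities were 871, 858, 790, 788 and 701 in first-site retina and 704, 537, 541, 895 and 846 in cortex. Those of the second site were 768, 870 and 996 in retina and 816, 1800 and 832 in cortex, and the tissues overlapped at both sites. The reading of 1800 came from the dimmest array. Lig1, the DNA ligase of Okazaki fragments, was lower at the first site by -0.47 ± 0.14 (adjusted p = 0.011) and read 0.15 ± 0.16 (adjusted p = 0.6) at the second. Pola1 and Pola2 of polymerase alpha, Pold1 of polymerase delta and the clamp loader subunit Rfc4 were called at neither site, with log2 differences between -0.18 and 0.09 at the first and between -0.49 and 0.46 at the second.

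The 3 genes of nucleotide supply differed from one another. Rrm2, the regulated small subunit of ribonucleotide reductase, had scaled intensities of 14.8, 24.4, 21, 13.4 and 23.0 in first-site retina and 242, 245, 196, 252 and 240 in cortex. The second site read 17.4, 17.6 and 16.8 in retina and 292, 246 and 245 in cortex. In retina 1 of 5 arrays at the first site and 1 of 3 at the second lay above the floor. Its log2 differences were -2.91 ± 0.14 (adjusted p = 4.3e-11) and -3.09 ± 0.18 (adjusted p = 8.2e-07). Rrm1, the large subunit of the same enzyme, read 144, 146, 134, 133 and 113 in first-site retina and 147, 152, 149, 127 and 159 in cortex, which overlapped. Rrm1 was called at neither site, with log2 differences of -0.11 ± 0.10 and 0.10 ± 0.15.

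Tk1, the S-phase thymidine kinase, was lower at both sites, by -0.86 ± 0.29 (adjusted p = 0.023) and -1.47 ± 0.26 (adjusted p = 0.0017). Its first-site retina arrays were widely spread at 142, 30.5, 106, 147 and 201, overlapping with cortex at 209, 240, 223, 213 and 178. Second-site retina read 27.3, 73.0 and 51.1 and cortex 163, 142 and 167, without overlap.

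Among the mitosis genes of chromosome structure, Top2a, the topoisomerase that untangles sister chromatids, was lower at both sites. Scaled intensities of Top2a were 4.0, 3.0, 2.3, 3.9 and 3.5 in first-site retina and 77.3, 73.4, 52.4, 71.1 and 80.8 in cortex. The second site read 2.9, 2.5 and 2.0 in retina and 61.8, 77.7 and 69.8 in cortex. Every retina array lay under the floor, so retina was at least 2.22-fold lower at the first site and at least 2.63-fold lower at the second (adjusted p = 1.9e-09 and 5.7e-05). Mki67, which encodes the proliferation antigen Ki-67, was called at neither site on its brighter probe set, at -0.38 ± 0.16 (adjusted p = 0.067) and -0.56 ± 0.24 (adjusted p = 0.11). Without cortex replicate 4 or 5 the first-site difference passed, at -0.45 (adjusted p = 0.034) and -0.46 (adjusted p = 0.028). Cenpa, the centromeric histone H3 variant, read -0.06 ± 0.13 and -0.39 ± 0.27 and was not called.

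Of the 6 genes of cyclin and Cdk control, 5 were lower in retina at the first site and 3 at the second, against 28% and 17.9% of all genes. Cdk1, the kinase that drives entry into mitosis, had scaled intensities of 8.8, 23.1, 7.7, 27.4 and 60.5 in first-site retina and 153, 156, 128, 141 and 161 in cortex. The second site read 12, 10.6 and 29.7 in retina and 168, 182 and 174 in cortex, with no overlap at either. The Cdk1 log2 differences were -2.22 ± 0.28 (adjusted p = 5.0e-06) and -2.60 ± 0.24 (adjusted p = 2.2e-05). Only 3 of 5 first-site and 1 of 3 second-site retina arrays lay above the floor for Cdk1. Ccnb2, a B-type cyclin partner of Cdk1, read 146, 142, 168, 155 and 185 in first-site retina and 323, 299, 351, 308 and 329 in cortex. Second-site retina read 110, 120 and 140 and cortex 317, 573 and 352, the 573 again on the dimmest array. Ccnb2 was lower by -0.95 ± 0.09 (adjusted p = 1.2e-07) and -1.56 ± 0.19 (adjusted p = 1.2e-04).

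Cks2, a small Cdk-binding protein, was lower by -0.70 ± 0.13 (adjusted p = 1.9e-04) and -1.19 ± 0.17 (adjusted p = 4.5e-04). Ccna2, the S and G2 cyclin, was lower at the first site by -0.32 ± 0.09 (adjusted p = 0.0059) and read -0.37 ± 0.16 (adjusted p = 0.1) at the second. Ccnf, an F-box protein, was lower at the first site by -0.26 ± 0.10 (adjusted p = 0.041) and read -0.28 ± 0.19 at the second. The Ccnf call was lost without retina replicate 2, 3 or 4, or without cortex replicate 1, 2 or 3 (-0.28 to -0.22, adjusted p 0.051 to 0.12). Cdc25c, a phosphatase that activates Cdk1, pointed the other way without a call, at 0.24 ± 0.11 (adjusted p = 0.096) and 0.45 ± 0.16 (adjusted p = 0.062). It passed without cortex replicate 1 at the first site (0.31, adjusted p = 0.033) and without cortex replicate 2 at the second (0.45, adjusted p = 0.032).

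Of the 3 spindle checkpoint genes, 2 were lower at each site, against 28% of all genes at the first and 17.9% at the second. Cdc20, the activator of the anaphase-promoting complex, read 70.0, 99.7, 80.2, 93.5 and 94.4 in first-site retina and 190, 217, 194, 184 and 196 in cortex in scaled intensity. Second-site retina read 82.8, 77.3 and 67.7 and cortex 267, 181 and 217, and neither site overlapped. Its log2 differences were -1.05 ± 0.11 (adjusted p = 3.7e-07) and -1.36 ± 0.19 (adjusted p = 3.7e-04). The checkpoint kinase Bub1 lay under the floor on all retina arrays, so retina was at least 1.24-fold lower at the first site (adjusted p = 1.2e-06) and at least 1.29-fold lower at the second (adjusted p = 0.011). The second-site Bub1 call was lost without retina replicate 1 (log2 difference -1.17, adjusted p = 0.051) or cortex replicate 1 (-1.30, adjusted p = 0.053). Mad2l1, which inhibits Cdc20 until chromosomes are attached, read 0.31 ± 0.14 (adjusted p = 0.091) and -0.14 ± 0.22. Without retina replicate 5 its first-site difference passed in the direction of retina (0.43, adjusted p = 0.0067).

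All 4 genes of mitotic kinases and their complex were lower in retina at the first site and 3 at the second, against 28% and 17.9% of all genes. Birc5, the survivin subunit of the Aurora B complex, read 4.0, 5.2, 19.9, 25 and 17.6 in first-site retina, all at or under the floor, and 51.6, 42.1, 62.2, 55.1 and 60.4 in cortex. Retina was at least 1.80-fold lower there (adjusted p = 1.3e-04). Second-site Birc5 read 16.5, 15.1 and 14.2 in retina and 83.6, 95.6 and 86.2 in cortex, a log2 difference of -1.78 ± 0.20 (adjusted p = 7.1e-05). Only 1 of these 3 retina arrays lay above the floor. Plk1, the Polo-like kinase, was lower by -0.48 ± 0.11 (adjusted p = 0.0018) and -0.94 ± 0.22 (adjusted p = 0.007). Aurka, the centrosomal Aurora kinase, was lower by -0.55 ± 0.14 (adjusted p = 0.0039) and -0.72 ± 0.24 (adjusted p = 0.047). The second-site Aurka call was lost without retina replicate 1, 2 or 3, or without cortex replicate 1 (-0.73 to -0.68, adjusted p 0.12 to 0.13). Aurkb, the kinase of the same complex as Birc5, lay under the floor in first-site retina, at least 1.06-fold lower (adjusted p = 0.018), and read -0.81 ± 0.36 (adjusted p = 0.12) at the second site.

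All 5 kinesin and cytokinesis genes were lower in retina at both sites, against 28% of all genes at the first and 17.9% at the second. Kif11, the motor that separates spindle poles, read 16.2, 6.0, 3.7, 2.3 and 7.5 in first-site retina, all under the floor, and 60.5, 65.2, 54.7, 74.6 and 70.6 in cortex. Retina was at least 2.08-fold lower there (adjusted p = 3.9e-08). Second-site Kif11 read 22.2, 19.3 and 21.9 in retina and 49.8, 43.3 and 67.4 in cortex, a log2 difference of -0.96 ± 0.22 (adjusted p = 0.0064). Of these retina arrays, 2 of 3 lay above the floor. Racgap1, a GTPase-activating protein of the central spindle, read 104, 121, 107, 94.4 and 89.4 in first-site retina and 198, 174, 182, 178 and 178 in cortex. Second-site Racgap1 read 122, 106 and 101 in retina and 199, 203 and 202 in cortex, and the log2 differences were -0.74 ± 0.10 (adjusted p = 8.2e-06) and -0.78 ± 0.15 (adjusted p = 0.0029).

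Its partner Ect2, the exchange factor that starts cytokinesis, was lower by -0.70 ± 0.13 (adjusted p = 1.8e-04) and -1.13 ± 0.25 (adjusted p = 0.0058). Kif20a, a kinesin of the central spindle, was lower by -1.04 ± 0.26 (adjusted p = 0.0033) and -1.01 ± 0.33 (adjusted p = 0.04). The tissues overlapped at the first site, and retina lay above the floor on 2 of 5 arrays there and on 2 of 3 at the second. The second-site Kif20a call was lost without retina replicate 1, 2 or 3, or without cortex replicate 1 (-1.14 to -0.83, adjusted p 0.052 to 0.14). Kif2c, a kinesin that depolymerises microtubules at centromeres, was lower by -0.49 ± 0.16 (adjusted p = 0.021) and -1.18 ± 0.21 (adjusted p = 0.0014). Its first-site call was lost without retina replicate 3, or without cortex replicate 2 or 3 (-0.45 to -0.36, adjusted p 0.053 to 0.065).

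**Figure D2:**
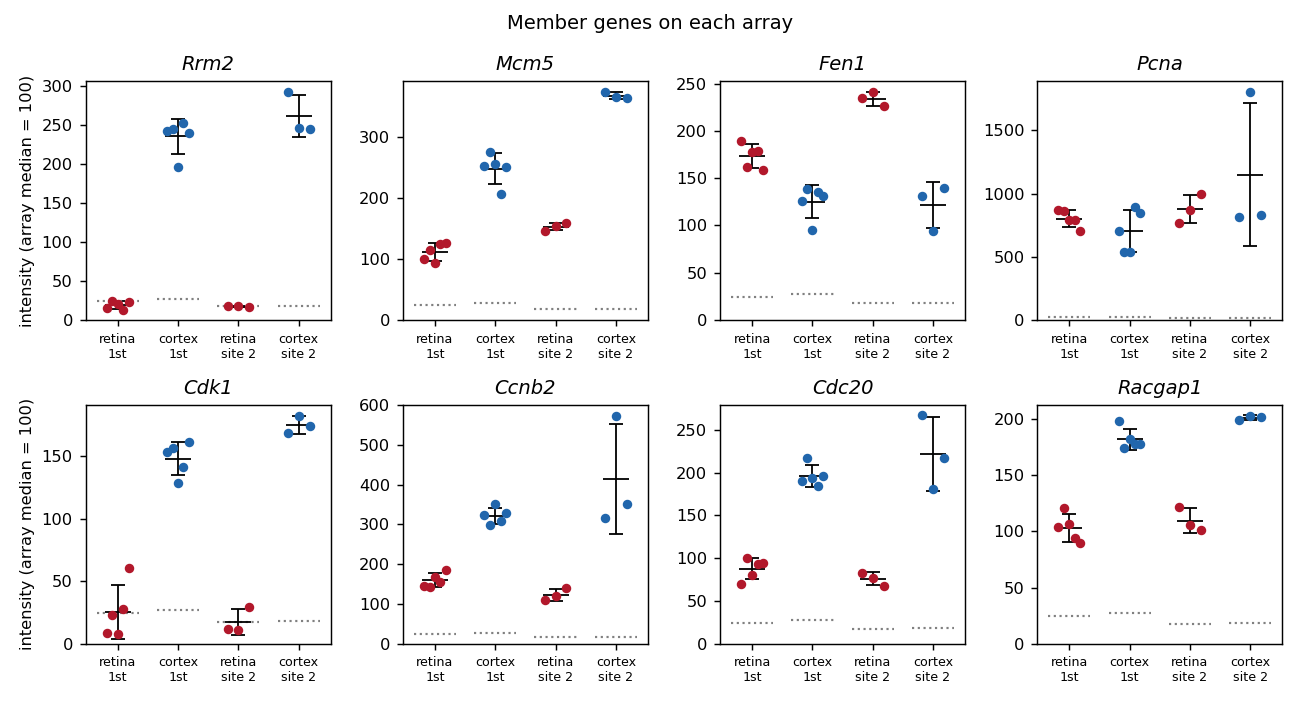
Scaled intensity (array median 100, linear axis from 0) of 8 genes on each of the 16 arrays, by tissue and site. Points are arrays, black bars the group mean with its SD, and dotted lines the mean floor of the group. Retina lies under cortex without overlap for Rrm2, Mcm5, Cdk1, Ccnb2, Cdc20 and Racgap1, over it for Fen1, and overlaps with it for Pcna.

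Averaged over the genes of a kind on each array, and set against the midpoint of the tissue means of the site, replication genes lay between -0.27 and -0.16 in first-site retina and between 0.18 and 0.26 in cortex. The mitosis average lay between -0.56 and -0.23 in retina and between 0.33 and 0.46 in cortex. Second-site replication averages were -0.20 to -0.18 in retina and 0.13 to 0.24 in cortex, and mitosis averages -0.53 to -0.47 and 0.35 to 0.72. The highest of these, 0.72, was the dimmest array. The mitosis median difference minus the replication median difference was -0.27 at the first site and -0.87 at the second. Among probe sets above the median signal, which kept 12 replication and 9 mitosis genes, it was 0.06 and -0.35. The direction at the first site was thus not the same for the brighter genes, and no test was made between the kinds of gene.

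**Figure D3:**
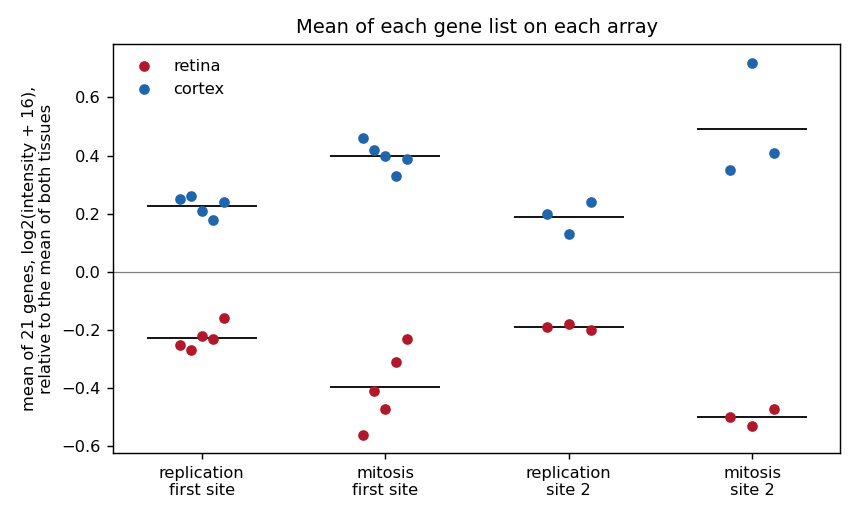
Mean log2 level of the 21 replication and the 21 mitosis genes on each array, relative to the midpoint of the tissue means of its site. Lines are group means. Retina arrays lie under 0 and cortex arrays over 0 in every group, and the highest mitosis point, 0.72, is cortex replicate 2 of the second site.

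The differences of the 42 genes at both sites had a Pearson r of 0.88 and a Spearman rho of 0.86 across genes, which share arrays and RNA pools and are not independent. The sign was the same for 16 of 21 replication and 20 of 21 mitosis genes. Lower calls at both sites were made for 7 replication genes, namely Mcm3, Mcm5, Cdc6, Prim1, Prim2, Rrm2 and Tk1, and for 14 mitosis genes. Lower calls at the first site alone numbered 5 and 3, and no gene was called in opposite directions. The shares of all genes with such agreement between sites were not computed. Both sites read the same RNA pools, so these counts are a description only. Whether the difference itself changed between sites was tested as the interaction of tissue and site, which was called for 1 of the 42 genes, against 3.82% of all genes. That gene was Kif11, at 0.96 ± 0.26 (adjusted p = 0.047), and the call was lost without any 1 of 12 of the 16 arrays (0.88 to 1.01, adjusted p 0.054 to 0.12).

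**Figure D4:**
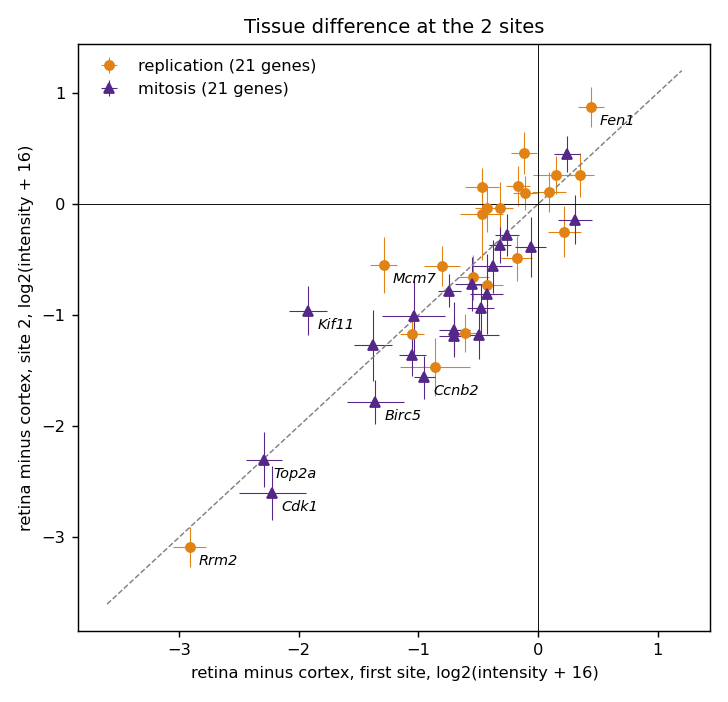
Retina minus cortex difference in log2(intensity + 16) at the second site against that at the first site, 1 point per gene, by kind. Of the 42 points, 36 have the same sign at both sites.

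The same RNA pool read at both sites gave called differences between sites, second minus first, for 13 of the 42 genes in retina and 6 in cortex, against 38.5% and 17.9% of all genes. Plk1 was lower at the second site in both tissues, by -1.33 ± 0.16 in retina (adjusted p = 5.3e-06) and -0.87 ± 0.16 in cortex (adjusted p = 0.0013). Its scaled intensities were 189, 152, 212, 205 and 254 in first-site retina and 84.3, 54.4 and 76.0 in second-site retina, without overlap. In retina 3 replication genes (14.3%) were lower and 6 (28.6%) higher at the second site, near the 11.5% and 27% of all genes. Of the mitosis genes 3 were lower (14.3%) and 1 higher (4.76%). Rrm1 was higher at the second site in both tissues, by 0.79 ± 0.11 (adjusted p = 2.8e-05) and 0.58 ± 0.11 (adjusted p = 0.0019), without overlap between the sites. Also higher in both were Mcm5, by 0.41 ± 0.12 and 0.53 ± 0.12, and Rpa2, by 0.45 ± 0.15 and 0.54 ± 0.15. The Rpa2 site calls were lost without retina replicate 4 of the first site or retina replicate 1 or 3 of the second (0.34 to 0.37, adjusted p 0.064 to 0.16), and in cortex without cortex replicate 3 of the second site (0.50, adjusted p = 0.068). Mcm7 in retina was higher by 0.92 ± 0.18 (adjusted p = 4.7e-04), beside a first-site tissue difference of -1.29.

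The brighter probe set was checked against the 14 further probe sets of 12 of the genes. At the first site 7 of them were lower and 7 not called, 8 matched the call of the brighter set, and none was called in the opposite direction. Site 2 gave lower calls for 2 of the 14 and no call for 12, 6 matched the call of the brighter set, and again none was opposite. The further Rrm1 set and both further Bub1 sets lay at or under the floor on all first-site arrays, so their lack of a call there tells little. The further Kif20a set, called lower at the first site, was above the floor there on only 1 array, of cortex. For Mki67 the further probe set was called where the brighter was not. Its retina arrays all lay under the floor, at 4.56 ± 3.44 (SD, n = 5) against 92.4 ± 21.8 (SD, n = 5) in cortex in scaled intensity. Retina was at least 2.75-fold lower by it at the first site (adjusted p = 1.1e-08) and at least 3.53-fold lower at the second (adjusted p = 8.5e-06). The further Mcm3 set was lower by -1.30 ± 0.15 and -1.45 ± 0.20, and that of Pola2 by -1.37 ± 0.27 at the first site, where the brighter Pola2 set read -0.17 ± 0.10.

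Both further Plk1 sets were lower at the first site, by -0.41 ± 0.11 and -0.46 ± 0.17. The second site gave -0.05 ± 0.17 and 0.06 ± 0.27, where the brighter Plk1 set was lower by -0.94. The site difference in retina also disagreed among the Plk1 sets, at -1.33 on the brighter one and 0.17 and 0.72 on the others. The further Mcm5 set was not called (-0.20 ± 0.27), nor was that of Tk1 (0.11 ± 0.38).

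**Figure D5:**
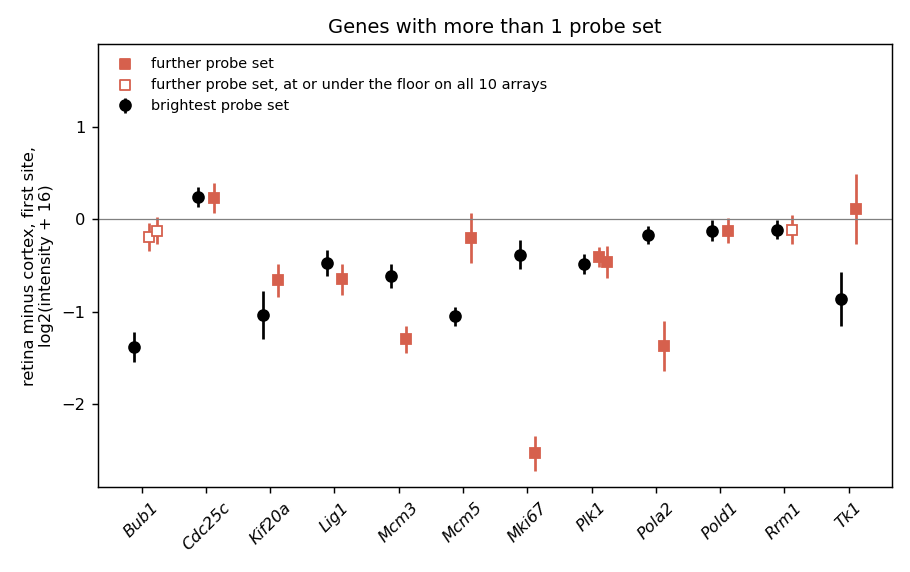
First-site retina minus cortex difference in log2(intensity + 16), with its standard error, for the brightest (circles) and the further (squares) probe sets of the 12 genes that have more than 1. Open squares were at or under the floor on all 10 first-site arrays. The further Mki67 set lies at -2.53 and the brightest at -0.38.

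The rest of each pathway was read from lists of 52 further replication and 58 further mitosis genes, of which 43 each were measured. Of the replication list 17 were lower and 5 higher at the first site, with a median of -0.17, and 9 lower (20.9%) and 5 higher at the second. Against all genes, of which 28% were lower and 25.5% higher at the first site and 17.9% and 20.1% at the second, the second-site share of lower calls was near the background. Of the mitosis list 22 were lower and 5 higher at the first site, with a median of -0.46, and 18 lower and 1 higher at the second, or 51.2% and 41.9% lower against the same 28% and 17.9% of all genes. Uhrf1, which brings Dnmt1 to replicated DNA, lay under the floor in first-site retina and was at least 2.99-fold lower (adjusted p = 3.1e-06), and the chromatin assembly subunits Chaf1a and Chaf1b were both lower by -0.91 (SE 0.27 and 0.17). For Chaf1a the tissues overlapped, and it was not called at the second site (-0.51 ± 0.28, adjusted p = 0.22). Chaf1b was lower there by -1.18 ± 0.22 (adjusted p = 0.002). Higher in retina were Rpa1, the large subunit of RPA, by 1.45 ± 0.11 and 1.9 ± 0.19 at the respective sites, and Rpa3 and Rfc1, by 0.60 ± 0.11 and 0.55 ± 0.12 at the first.

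Among the mitosis list's lower genes were Cks1b, the paralog of Cks2, at -2.49 ± 0.12, the spindle bundling protein Prc1, at -2.18 ± 0.23, and Ckap2, at -1.93 ± 0.16. First-site retina lay above the floor on 3 of 5 arrays for Prc1 and on 1 of 5 for Ckap2. Pttg1, the separase inhibitor securin, was higher by 0.91 ± 0.07, followed by the kinesin Kif22, at 0.67 ± 0.09, and the kinetochore protein Zw10, at 0.56 ± 0.15. Pttg1 was also higher at the second site, by 1.16 ± 0.14, while Kif22 and Zw10 were not called there, at 0.47 ± 0.18 and 0.03 ± 0.30.

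Markers of the cells that either tissue could hold were read on the same arrays. Rod photoreceptor genes were called higher in retina for 9 of 9 measured at each site, and their summed scaled intensity was 48232 to 56168 in first-site retina and 94.1 to 133 in cortex, where Pde6b, Rcvrn, Rom1, Pdc, Nrl and Cnga1 were at or under the floor. All 9 genes of newborn cortical neurons were lower in retina, summing to 4520 to 5163 against 38032 to 46649, with Neurod6 under the floor in retina. Of 11 progenitor and radial glia genes, 4 were lower (36.4%) and 3 higher (27.3%) at the first site, against 28% and 25.5% of all genes. Their median difference was 0.07, and they summed to 6852 to 7455 in retina and 8118 to 9942 in cortex. Among them Fabp7, a radial glia protein, was lower by -5.86 ± 0.08, and Prom1, which rods also express, was higher by 5.02 ± 0.09.

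Markers of other cell types are set against the 28% of all genes called lower at the first site and 17.9% at the second. Of 9 endothelial genes 6 were lower and 2 higher (sums 1110 to 1337 in retina and 1625 to 1807 in cortex), and of 10 meningeal and mural genes 8 were lower (2429 to 2800 and 5024 to 5589). Of 8 erythroid genes 4 were lower and 1 higher (1845 to 2327 and 4063 to 4507), of 10 microglial genes 5 were lower (915 to 1028 and 1192 to 1292), and of 6 oligodendrocyte lineage genes 2 were lower (800 to 895 and 1505 to 1660). Aif1, Itgam and Ptprc, Epb42, and Mog and Cnp of these last 3 lists were at or under the floor in both tissues. At the second site the counts lower and higher were 4 and 3 for progenitors, 6 and 2 for endothelium, 7 and 0 for meninges and mural cells, 5 and 1 for erythroid cells, and 2 and 0 for both microglia and the oligodendrocyte lineage. The lower shares of microglia at the second site (20%) and of the oligodendrocyte lineage at the first (33.3%) were near those of all genes. The part of these cells in the differences of the replication and mitosis genes was not tested.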

How the data were processed

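RNA of 2 pools was measured on 16 1-colour arrays (5 per tissue at the first site, 3 at the second). The authors deposited intensities on a linear scale, 1 per probe set, and how they summarised probes, subtracted background or scaled arrays is not given in the sources used here. Array medians differed 4.73-fold, so no common scaling was visible, and the number of arrays limits the precision. Of 12488 probe sets, 66 controls were left out. Names came from the platform annotation, with 10817 of 10833 single-symbol probe sets found in RefSeq (GRCm38.p6), and 396 with several symbols and 1193 without a name here were not named.

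From log2(intensity + 16), centred on each array's median, limma 3.58.1 in R 4.3.3 (lmFit, eBayes with intensity trend, two-sided, Benjamini-Hochberg over all probe sets) was fitted within each site, and over all 16 arrays for differences between sites and the interaction. The procedure was tested on simulated arrays. The members and lists were chosen with earlier results of these data known. Any measured member could be named, and of other lists up to 3 per direction, the highest markers and defining markers at the floor. Numbers shared by samples were not treated as pairs in the main fits. Deviations of same-numbered arrays correlated at -0.187 to 0.08, which does not settle whether the numbers pair arrays. Alternatives were pseudocounts of 1 and 50, scaling to a median of 100, no centring, quantile normalization, probe sets above the median signal, no trend, the replicate block, the mean of all probe sets, 1 fit over all arrays and leaving out each array.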

Additional observations from a re-analysis of the deposited data

Results flagged for a closer look

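In 84 groups of 5 first-site arrays, 1 gene and tissue each, 9 had an array whose gap to its nearest neighbour took more than 0.71 of the group's range, which chance gives in about 1 group in 20. In retina, Lig1 was highest on replicate 4, with a gap share of 0.85 (160 in scaled intensity, others 101 to 108). Mki67 was lowest on replicate 4 (0.72; 40.3, others 57.6 to 62.2), Cdc25c on replicate 5 (0.73; 103, others 111 to 114) and Kif2c on replicate 3 (0.72; 22.7, others 39.8 to 44.8). In cortex, replicate 4 was lowest for Mcm2 (0.83; 113, others 154 to 162) and for Mcm5 (0.75; 206, others 251 to 274). Replicate 3 was lowest for Fen1 (0.75; 95.3, others 126 to 139) and for Rrm2 (0.81; 196, others 240 to 252), and replicate 5 was highest for Cks2 (0.77; 125, others 95.8 to 102). In the fit with the interaction of tissue and site, the tissue difference of Kif11 at the second site minus that at the first was 0.96 on the log2 scale, with first-site retina at or under the floor.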

How the results depend on the processing

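No called tissue difference of a single gene changed its sign under any alternative run, nor did the called interaction of Kif11. The signs of differences between sites within a tissue were not followed gene by gene. At the first site 5 of 14 called replication genes and 12 of 17 called mitosis genes kept their call under every alternative that could be fitted, and at the second site 1 of 8 and 3 of 14. Without centring of the arrays, 4 replication and 13 mitosis genes were lower at the first site, where the share of all probe sets called lower fell to 16.6%. At the second site 1 replication and 4 mitosis genes were lower, against 3.49% of all probe sets. The calls between sites fell to 1 in retina and 0 in cortex, against 2.33% and 0.636% of all probe sets. With only probe sets above the median signal, fewer genes were left, and 7 replication and 6 mitosis genes were lower at the first site, against 36.3% of the probe sets kept, and 3 and 4 at the second, against 22.6%. The interaction was called for 0 genes with a pseudocount of 1 or 50, without centring and with the replicate block, against 0.274% to 3.7% of all probe sets. The mitosis minus replication median at the first site was -0.35 with a pseudocount of 1 and reversed to 0.06 above the median signal. At the second site it was -1.28 and -0.54 with pseudocounts of 1 and 50, -0.35 above the median signal and -0.64 with a gene's probe sets averaged. Where no construction of the alternative is named, the cause was not tested.

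Leaving out each array in turn gave 10 to 12 lower replication and 15 to 18 lower mitosis genes at the first site, against 23.9% to 25.6% of all probe sets. At the second site it gave 4 to 8 and 11 to 14, against 12.1% to 21.3%. The count of 4 came when retina replicate 2 or 3, or cortex replicate 1 or 3, was left out, and that of 8 without cortex replicate 2. Calls between sites ranged from 9 to 13 in retina, against 26.5% to 33.6% of all probe sets, and from 5 to 8 in cortex, against 11.9% to 40.1%. The 8 and the 40.1% both came without cortex replicate 2 of the second site. Calls of the interaction ranged from 0 to 2, against 1.71% to 5.4%, the 2 being Ccnb2 and Mcm7 without cortex replicate 1 of the second site. The median differences ranged from -0.34 to -0.20 and from -0.93 to -0.71. With the replicate number as a replicate block, 11 replication and 15 mitosis genes were lower at the first site, against 24.9% of all probe sets. At the second site 7 and 13 were lower, against 17%. In the block fit 9 and 6 genes differed between sites in retina and cortex, against 31.3% and 13%. Of the retina arrays, 2 of 5 at the first site and 1 of 3 at the second correlated best with the cortex array of their own number. Dim genes are limited by the floor, which 5 mitosis genes in first-site retina did not pass on any array.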
